A study of Mus musculus with 6 samples.

Results

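The CXC chemokines of cultured mouse lung fibroblasts were followed through exposure to DKK1. The members were the 10 genes Cxcl1, Cxcl2, Cxcl3, Cxcl5, Cxcl15, Cxcl9, Cxcl10, Cxcl12, Cxcl14 and Cxcl16, matched through their Ensembl identifiers, of 45706 genes in the count table. They were chosen by family name with the values of this contrast already known, so their differences between the groups are given as a description; where a fit over all genes called a member, that is stated for scale, beside the share of all genes called, and is no evidence for it. Of the 10 members, 8 passed the filter on low counts and entered the fit over 14635 genes, and 2, Cxcl9 and Cxcl15, did not.

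The fibroblasts came from wild-type mouse lung that was digested with collagenase and trypsin, cultured and then purified. There were 3 control libraries, labelled only as control, and 3 libraries from cells kept for 24 hours with the recombinant mouse protein DKK1 at a dose of 30 ng/ml. The labels state no sex, age, strain or number of animals, and they do not say whether the 3 libraries of a group came from separate mice or from separate wells, so the tests below measure only the spread between these libraries. Dickkopf-1 (DKK1) is an extracellular antagonist of Wnt signalling that acts on the LRP5 and LRP6 co-receptors, and the stated purpose was to find the genes that it alters in these cells. Library totals ran from 22565917 to 34727102 counts, and 3 counts in a library corresponded to 0.0864 to 0.133 CPM (counts scaled to the library total). In each group the library numbered 3 stood apart, with the highest summed levels of epithelial, macrophage, endothelial and mesothelial markers.

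CXC chemokines are small secreted proteins that direct leukocyte migration through G protein-coupled receptors. Those with a Glu-Leu-Arg (ELR) motif before the first cysteine, here Cxcl1, Cxcl2, Cxcl3, Cxcl5 and Cxcl15, attract neutrophils, in most cases through CXCR2. Of those without it, Cxcl9 and Cxcl10 are interferon-induced ligands of CXCR3 on T cells, Cxcl12 binds CXCR4 and the scavenger ACKR3 and is a classical product of stromal cells, Cxcl14 is a constitutively expressed member, and Cxcl16 is made as a membrane-bound ligand of CXCR6. Transcription of some neutrophil-attracting genes, such as Cxcl1 and Cxcl2, is driven by NF-kB downstream of interleukin-1, tumour necrosis factor and interleukin-17. The messages of such genes are short-lived through AU-rich elements in the 3′ untranslated region.

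On the GRCm38 build, the 5 ELR members lay on the forward strand of chromosome 5. They shared a cluster of 146.6 kb with 2 CXC genes outside the members, Ppbp and Pf4. In order along it, Cxcl5 lay at chr5:90759360-90761624, Cxcl3 at chr5:90786103-90789600, Cxcl15 at chr5:90794534-90803067, Cxcl1 at chr5:90891241-90893115 and Cxcl2 at chr5:90903871-90905938. Cxcl9 (chr5:92321347-92328079) and Cxcl10 (chr5:92346638-92348889) lay on the reverse strand further along that chromosome, within 44.1 kb that also hold Cxcl11. The other 3 members lay apart: Cxcl12 at chr6:117168535-117181367 on the forward strand, Cxcl16 at chr11:70453983-70459984 and Cxcl14 at chr13:56288643-56296551, both on the reverse strand. All 10 are annotated as protein-coding.

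The promoter windows of 4 members are shown because they hold a match to the NF-kB consensus. Of these, 3 belong to the 4 members with the largest differences described below. The other of those members, Cxcl5, had no entry in the promoter reference. Each runs 5′ to 3′ on the gene's own strand from 250 bases before to 50 bases after the RefSeq gene start (GRCm38.p6), and capitals mark consensus matches on either strand. The windows are chr5:90890995-90891294 for Cxcl1, chr5:90903649-90903948 for Cxcl2 and chr5:90785851-90786150 for Cxcl3, all on the forward strand, and chr5:92348840-92349139 on the reverse strand for Cxcl10.
Cxcl1: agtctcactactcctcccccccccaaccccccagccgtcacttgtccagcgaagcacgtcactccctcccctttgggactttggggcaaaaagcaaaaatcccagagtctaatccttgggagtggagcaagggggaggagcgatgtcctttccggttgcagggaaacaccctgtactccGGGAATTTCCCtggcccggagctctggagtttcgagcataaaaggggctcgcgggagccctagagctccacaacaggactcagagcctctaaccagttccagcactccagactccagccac
Cxcl2: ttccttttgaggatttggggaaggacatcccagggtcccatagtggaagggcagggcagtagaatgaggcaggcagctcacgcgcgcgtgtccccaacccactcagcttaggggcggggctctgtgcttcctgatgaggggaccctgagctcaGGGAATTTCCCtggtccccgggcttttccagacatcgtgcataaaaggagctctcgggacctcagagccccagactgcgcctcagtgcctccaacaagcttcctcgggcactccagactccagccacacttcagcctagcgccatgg
Cxcl3: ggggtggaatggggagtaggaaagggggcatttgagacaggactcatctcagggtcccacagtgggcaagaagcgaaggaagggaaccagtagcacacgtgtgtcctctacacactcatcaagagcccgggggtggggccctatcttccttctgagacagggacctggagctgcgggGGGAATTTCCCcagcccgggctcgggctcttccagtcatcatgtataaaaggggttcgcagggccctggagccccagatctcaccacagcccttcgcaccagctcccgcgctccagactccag
Cxcl10: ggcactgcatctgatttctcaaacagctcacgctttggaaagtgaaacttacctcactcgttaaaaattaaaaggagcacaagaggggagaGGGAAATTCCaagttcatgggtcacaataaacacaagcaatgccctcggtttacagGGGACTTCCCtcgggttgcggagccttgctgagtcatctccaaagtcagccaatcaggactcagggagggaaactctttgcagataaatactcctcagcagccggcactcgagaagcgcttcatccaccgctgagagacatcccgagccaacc

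The Cxcl1, Cxcl2 and Cxcl3 windows carried the same 10 bases, GGGAATTTCC, each overlapping a consensus match on the other strand that is shifted by 1 base. The forward match lay at -71 to -62 from the gene start in Cxcl1, at -97 to -88 in Cxcl2 and at -73 to -64 in Cxcl3. Among 32851 promoters of the same length, 29, or 0.0883%, held these 10 bases on either strand. Cxcl10 held 2 consensus matches, GGGAAATTCC at -159 to -150 and GGGACTTCCC at -103 to -94.

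The promoters of 8 members were searched, on both strands for each motif. Cxcl5 and Cxcl16 had no entry in the promoter reference and could not be searched. The NF-kB consensus was found in 4 of the 8 members and in 4.51% of all promoters. Among these, Cxcl1, Cxcl2 and Cxcl3 are close relatives in the same cluster and held the same site, so their matches are not independent. The looser pattern GGGNNNNNCC, which contains the consensus, was found in 6 of 8 members and in 50.8% of all promoters. The interferon-stimulated response element GAAANNGAAA was found in Cxcl10, at -213 to -204, and in Cxcl14, and in 3.44% of all promoters. The STAT pattern TTCNNNGAA was found in Cxcl14 only of the 8 (8.3% of all promoters), and the AP-1 pattern TGANTCA in Cxcl9 and Cxcl10 (7.81%). The TCF/LEF pattern CTTTGANG, the letters recognised by the nuclear partners of β-catenin in Wnt signalling, was found in Cxcl15 of the 8 members and in 4.29% of all promoters. The C/EBP pattern TTGCNNAA was found in none of the 8 (10.8%), and TATAAA in Cxcl3, Cxcl15 and Cxcl9 (13.6%). These are matches of letters in 300-base windows and were not tested as binding sites.

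**Figure D1:**
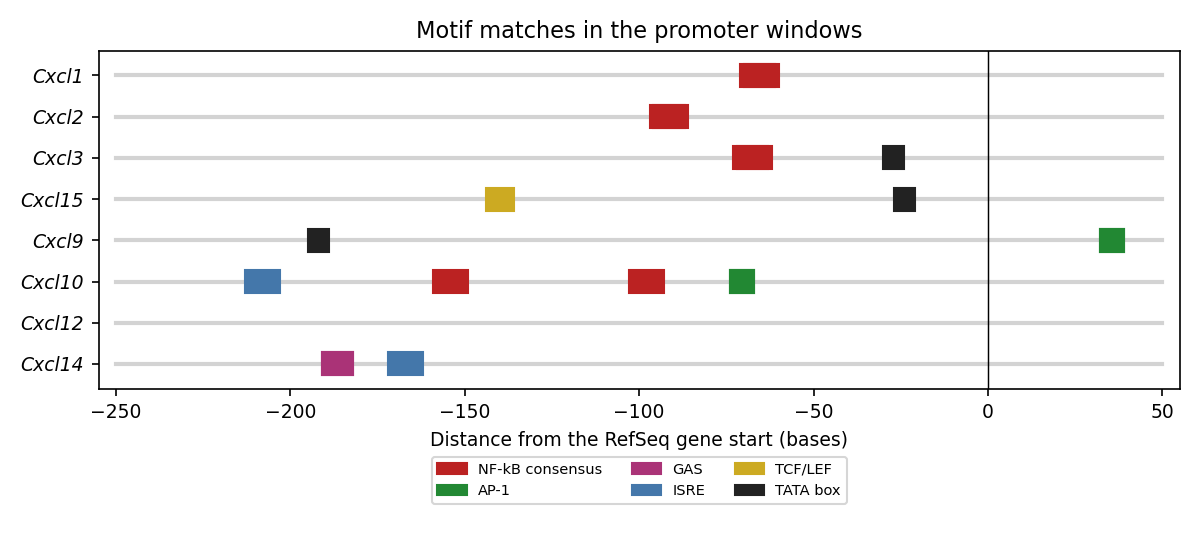
Motif matches in the promoter windows of 8 members, drawn against distance from the RefSeq gene start in bases; each coloured box is a match on either strand, and the loose NF-kB pattern is left out. The NF-kB consensus lies between -97 and -61 in Cxcl1, Cxcl2 and Cxcl3, Cxcl10 holds 2 such matches beside an ISRE and an AP-1 match, and Cxcl12 has none of the motifs drawn.

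The 3′ untranslated regions of the same 3 ELR genes were also rich in the AU pentamer ATTTA. The 30 bases richest in it are shown for them, from the transcript with the longest coding sequence in the GENCODE M21 annotation (GRCm38), with the pentamers in capitals. The stretches begin at base 79 of the untranslated region in Cxcl1, at base 123 in Cxcl2 and at base 181 in Cxcl3.
Cxcl1: gagggtcctATTTATTTAtgtATTTATTTA
Cxcl2: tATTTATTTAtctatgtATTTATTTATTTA
Cxcl3: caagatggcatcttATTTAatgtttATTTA

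Cxcl2 had 11 pentamers, or 15.0 per kb, a density reached by 0.322% of 13340 tested genes with such a region. Cxcl1 had 7 (11.8 per kb, reached by 0.63%), Cxcl3 had 5 (7.75 per kb, 2.06%) and Cxcl5 had 5 (4.5 per kb, 8.77%). Against a median of 1.25 per kb, these 4 ELR genes lay in the upper part of the range. The remaining members were nearer to that median or below it. Cxcl10 had 2 pentamers (2.74 per kb, reached by 23.2%), Cxcl16 had 2 (1.41 per kb), Cxcl15 had 2 (1.26 per kb), Cxcl9 had 3 (1.22 per kb) and Cxcl12 had 4 (0.771 per kb). Cxcl14 had 0.

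In control fibroblasts the transcripts of Cxcl14 and Cxcl12 far exceeded those of the other members. To compare genes, each level was divided by the length of the gene's merged exons (CPM per kb). Cxcl14 stood at 269 ± 57.2 CPM per kb (SD, n = 3), above 99.0% of the tested coding genes, and Cxcl12 at 82.9 ± 7.88, above 96.3%. Cxcl5 followed at 4.13 ± 1.13 and Cxcl16 at 3.06 ± 0.677 CPM per kb, and the ranges of these 2 genes overlapped. Below them came Cxcl1 at 1.01 ± 0.339, Cxcl10 at 0.559 ± 0.348, Cxcl3 at 0.248 ± 0.132 and Cxcl2 at 0.101 ± 0.0798 CPM per kb, each overlapping its neighbour in this order. Cxcl2 was thus above 2.19% of the tested coding genes, while Cxcl5 was above 44.9%. In the DKK1 libraries, the order ran Cxcl14, Cxcl12, Cxcl5, Cxcl16, Cxcl1, Cxcl3 and Cxcl2 with no overlap between neighbours, followed by Cxcl10, whose range overlapped that of Cxcl2.

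Summed over the 10 members, the pool measured 361 ± 48.8 CPM per kb in controls and 502 ± 74.9 with DKK1 (SD, n = 3 each). Cxcl12 and Cxcl14 together made up 98.3%, 97.2% and 96.7% of it in controls 1, 2 and 3, and 94.8%, 93.7% and 92.6% with DKK1. The 5 ELR members made up 0.929%, 1.87% and 1.97% in controls and 4.2%, 5.21% and 6.22% with DKK1, so the ranges of the groups did not meet. Within the ELR sum, which went from 5.58 ± 1.6 to 25.8 ± 2.91 CPM per kb, Cxcl5 held a similar share in both groups, 74.4% ± 3.42 in controls and 77.6% ± 0.917 with DKK1. The ELR part of these 10 members was therefore largely Cxcl5 transcript in both groups, beside a much larger pool of Cxcl12 and Cxcl14. Ppbp, which is outside the members, is not in these sums.

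**Figure D2:**
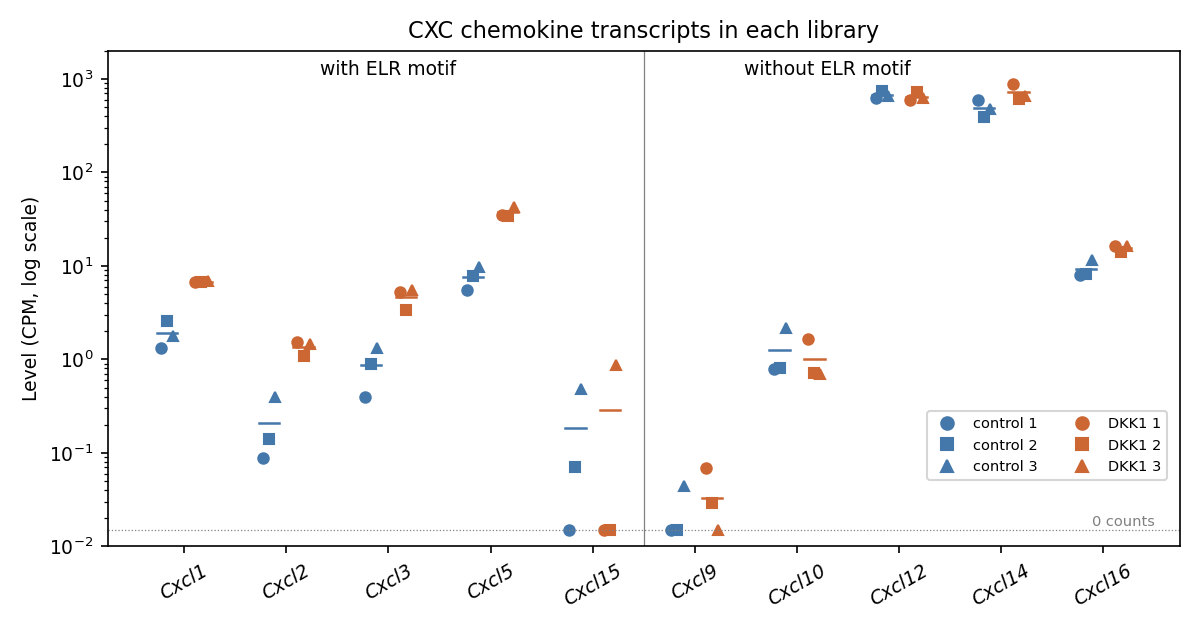
Level of each member in each of the 6 libraries, in CPM on a log axis; bars are group means of 3 libraries, colours the groups and shapes the replicate numbers, and points on the dotted line are 0 counts. The DKK1 libraries lie above all controls for Cxcl1, Cxcl2, Cxcl3, Cxcl5, Cxcl14 and Cxcl16, and the groups overlap for Cxcl10 and Cxcl12.

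The groups did not overlap, with every DKK1 library higher, for 6 of the 8 members tested; over all 14635 genes this held for 9.4%. At an adjusted p under 0.05 (edgeR's quasi-likelihood test, Benjamini-Hochberg adjustment over all genes), 4 members were called, all higher with DKK1: Cxcl1, Cxcl2, Cxcl3 and Cxcl5. Over all genes 0.895% were called, and 0.697% were called higher. With the replicate number as a block, which pairs the libraries of equal number, 7 members were called, 6 of them higher and 1 lower, beside 9.42% of all genes called and 4.96% called higher. The members were selected on this contrast, so these shares are printed for scale and nothing is read from them. In bulk RNA, fewer or more cells that express a gene and less or more transcript per cell cannot be told apart.

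Among the ELR genes, Cxcl5 (ENSMUSG00000029371), which lung epithelium is also known to make, had the highest level. It measured 5.54, 7.78 and 9.76 CPM in controls 1, 2 and 3 and 35.3, 34.3 and 42.2 CPM with DKK1. The 3 DKK1 libraries lay close together, and the lowest of them was far above the highest control. The ratio of the means was 4.84, and the log2 fold change 2.27 (SE 0.16). Over the 6 fits that left out 1 library, its log2 fold change ran from 2.09 to 2.45.

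Cxcl1 (ENSMUSG00000029380), the mouse chemokine also known as KC, measured 1.33, 2.58 and 1.77 CPM in controls and 6.66, 6.77 and 6.94 CPM with DKK1. The DKK1 values were almost equal, and the spread lay in the controls, with replicate 2 the highest. The log2 fold change was 1.82 (SE 0.21), and the same-numbered pairs gave ratios of 5.01, 2.62 and 3.93. Over the fits that left out 1 library, the log2 fold change ran from 1.62 to 2.13, and Cxcl1 was not among the called genes without DKK1 replicate 1.

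Cxcl3 (ENSMUSG00000029379) and Cxcl2 (ENSMUSG00000058427) are close relatives of Cxcl1 and were scarce in controls. Cxcl3 measured 0.399, 0.884 and 1.32 CPM in controls and 5.2, 3.34 and 5.51 CPM with DKK1, with a log2 fold change of 2.41 (SE 0.36). Cxcl2 measured 0.0886, 0.142 and 0.397 CPM in controls and 1.54, 1.09 and 1.47 CPM with DKK1, with a log2 fold change of 2.70 (SE 0.44). Over the fits that left out 1 library, the log2 fold change of Cxcl3 ran from 2.08 to 2.79. That of Cxcl2 ran from 2.37, without control replicate 1, to 3.47, without control replicate 3. Without both libraries numbered 3, the Cxcl2 value was 3.42. In counts, the Cxcl2 values were 2, 4 and 9 in controls and 44, 38 and 34 with DKK1. For both genes control replicate 1 was the lowest and control replicate 3 the highest, and the pair ratios were highest in pair 1. They were 13, 3.78 and 4.16 for Cxcl3, where DKK1 replicate 2 was the lowest DKK1 library, and 17.3, 7.73 and 3.71 for Cxcl2. The Cxcl2 ratio of 17.3 rests on 2 counts in control replicate 1, so its size and rank are uncertain. Cxcl2 passed the filter on low counts through 1 control library and all 3 DKK1 libraries, that is, mainly through the group where it was high. Of the 6 fits that left out 1 library, Cxcl3 was among the called genes in 3 (not without control replicate 1, control replicate 2 or DKK1 replicate 1) and Cxcl2 in 1, the one without control replicate 3. Cxcl2 shares 5.84% of its 50-base stretches with Cxcl3, and the deposited counts of both genes were whole in all 6 libraries.

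**Figure D3:**
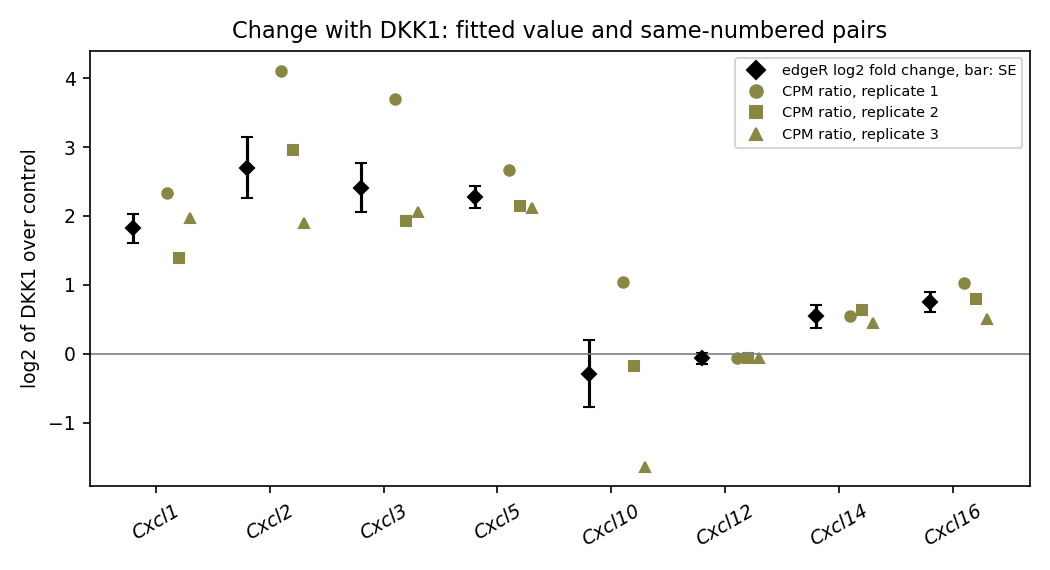
Change with DKK1 for the 8 members tested, on a log2 axis: diamonds are edgeR log2 fold changes with bars of 1 SE, and the other points are CPM ratios of libraries with equal replicate numbers. The 3 pairs are tight for Cxcl12 and Cxcl14, spread widely for Cxcl2 and Cxcl3, and lie on both sides of 0 for Cxcl10.

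Cxcl15 (ENSMUSG00000029375), known as lungkine and made by lung epithelium, was an exception among the ELR genes. It had 0, 2 and 11 counts in controls and 0, 0 and 20 with DKK1, and was not tested. Nearly all of its reads lay in the libraries numbered 3. The 8 epithelial markers Epcam, Cdh1, Sftpc, Sftpb, Scgb1a1, Krt8, Krt18 and Ager summed to 41.5, 48.1 and 127 CPM in controls and 43.0, 38.9 and 127 CPM with DKK1. Sftpc, the surfactant protein C gene of alveolar type 2 cells, measured 0.798, 2.65 and 8.39 CPM in controls and 0.523, 0.173 and 11.2 CPM with DKK1. Cxcl15 and the epithelial markers were thus highest in the same 2 libraries, 1 in each group, and the part of these cells in its reads was not tested.

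**Figure D4:**
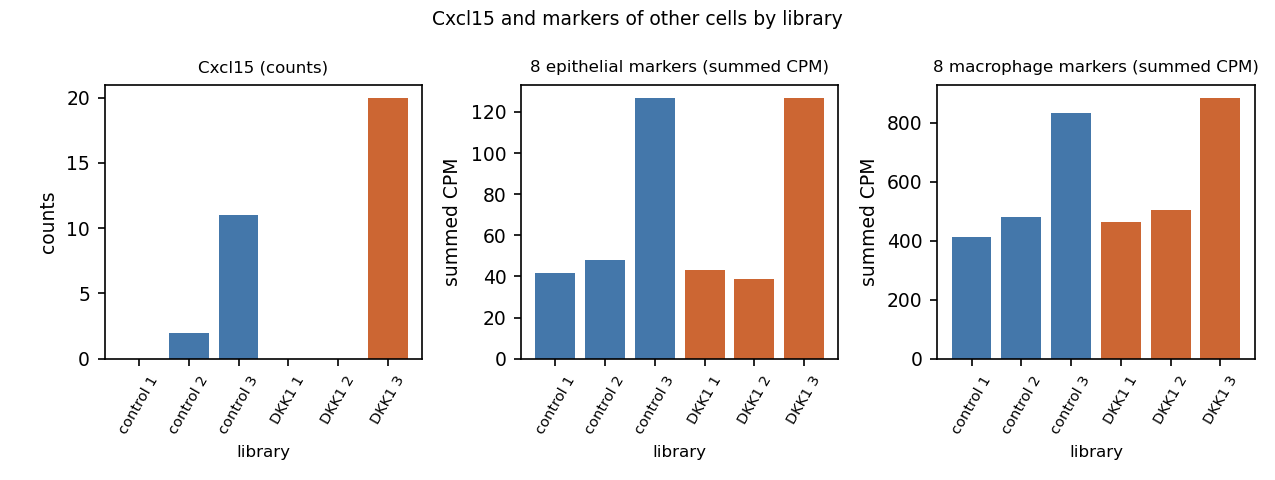
Counts of Cxcl15 and summed CPM of 8 epithelial and 8 macrophage markers, 1 bar per library. In both groups the library numbered 3 is the highest in all 3 panels, with 11 and 20 counts of Cxcl15.

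Cxcl14 (ENSMUSG00000021508) measured 602, 394 and 480 CPM in controls and 884, 612 and 651 CPM with DKK1. Every DKK1 library was above every control, although DKK1 replicate 2 exceeded control replicate 1 only slightly. The log2 fold change was 0.54 (SE 0.17), and the gene was not called by edgeR, DESeq2 or limma-voom without the block. It was called higher by edgeR without the block when the filter on low counts was left out, and by DESeq2 with the block. The pair ratios were 1.47, 1.55 and 1.36, so most of the spread was common to libraries of equal number, and with the replicate block the SE was 0.03 and the gene was called higher.

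Cxcl12 (ENSMUSG00000061353) measured 630, 751 and 652 CPM in controls and 602, 716 and 620 CPM with DKK1. The groups overlapped, and the log2 fold change was -0.07 (SE 0.08). Each DKK1 library was a little below its control, with pair ratios of 0.955, 0.953 and 0.951, and with the block the SE was 0.02 and Cxcl12 was called lower by edgeR. It was not called in the blocked fit without the libraries numbered 3, nor by DESeq2 with the block. Without control replicate 2 its log2 fold change was 0.009 in the fit without the block. The ratio of Cxcl14 to Cxcl12 per kb was 3.31 ± 0.964 in controls and 5.03 ± 1.4 with DKK1.

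Cxcl16 (ENSMUSG00000018920) measured 8.0, 8.13 and 11.6 CPM in controls and 16.2, 14.1 and 16.4 CPM with DKK1. The groups were apart, with control replicate 3 the nearest to the DKK1 libraries. The log2 fold change was 0.75 (SE 0.14); Cxcl16 was not called by edgeR without the block. It was called higher by edgeR with the block, at 0.76 (SE 0.09), and without it when control replicate 3 was left out, and also by DESeq2, by limma-voom and by edgeR without the filter on low counts. Its exons overlap those of Zmynd15 on the opposite strand, with which it shares 16.9% of its 50-base stretches, and its counts were fractional in all 6 libraries. Zmynd15 itself measured 0.559 ± 0.24 CPM in controls and 0.986 ± 0.0666 CPM with DKK1, a small part of the Cxcl16 level. Whether the counting used strand is not given in the sources used here, so reads of the overlapping stretch are uncertain for both genes.

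The interferon-induced members stayed low. Cxcl10 (ENSMUSG00000034855) measured 0.798, 0.814 and 2.16 CPM in controls and 1.64, 0.72 and 0.694 CPM with DKK1. The groups overlapped, the highest control was replicate 3 and the highest DKK1 library was replicate 1, and the log2 fold change was -0.29 (SE 0.49). Its sign turned without control replicate 3, to 0.33. Its promoter, shown above, holds NF-kB consensus matches as those of Cxcl1, Cxcl2 and Cxcl3 do. Cxcl10 shares 3.59% of its 50-base stretches with Art3 on the opposite strand, which measured 0.286 CPM in controls and 0.303 CPM with DKK1. Cxcl9 (ENSMUSG00000029417) had 0, 0 and 1 counts in controls and 2, 1 and 0 with DKK1. All 6 values lie under the limit of 3 counts that a count of 0 allows, so no level could be told from 0 at this depth.

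The profile of each member over the 6 libraries was compared with those of 13020 genes of at least 1 CPM, as the root mean squared difference of centred log2(CPM + 0.5) values. Nearest to Cxcl5 were Slpi, an inhibitor of neutrophil elastase (0.196), Cxcl3 (0.223) and C3, the central complement component (0.247). Nearest to Cxcl1 were C3 (0.184), Steap4, a metalloreductase (0.200), and Il6, the cytokine interleukin-6 (0.311), and nearest to Cxcl3 were Cxcl5 (0.223), Hp, which encodes haptoglobin (0.254), and C3 (0.275). C3 appeared in all 3 of these lists, at 13.1 CPM in controls and 47.1 CPM with DKK1. Nearest to Cxcl14 were Angptl4 (0.086), Ccbe1 (0.101) and Ptges (0.11). Nearest to Cxcl16 were Angpt1 (0.081), Pcsk5 (0.084) and Olr1 (0.086), and nearest to Cxcl12 were Cpq (0.025), Trim2 (0.03) and Pcolce (0.034). Nearest to Cxcl10 was Mir155hg (0.115), followed by B3gat2 and 9930014A18Rik. Libraries of 1 treatment contrast are shared by all these profiles, so likeness here includes the difference between the groups.

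Of the 5 mouse CXC ligands outside the members, 2 could be tested, and edgeR without the block called 0, beside 0.895% of all genes. With the block 1, Ppbp, was called, beside 9.42% of all genes. DESeq2 also called Ppbp, beside 288 of the 14635 genes tested. Ppbp had the 1 unadjusted p under 0.05, beside 10.6% of all genes. Ppbp, the platelet basic protein gene that lies between Cxcl5 and Cxcl3 in the cluster's 7 genes, measured 0.133, 0.212 and 0.397 CPM in controls and 1.08, 0.921 and 1.65 CPM with DKK1. Its groups did not overlap, and its log2 fold change was 2.26 (SE 0.42). Like Cxcl2, Ppbp passed the filter through 1 control and 3 DKK1 libraries, that is, through the group where it was high, so its values are given as a description and its calls support nothing. Pf4, platelet factor 4, measured 2.43 ± 0.653 CPM in controls and 3.03 ± 1.62 CPM with DKK1 (SD, n = 3; edgeR adjusted p = 0.858), so the difference was within the spread. Cxcl11 had 0 counts in all 6 libraries, Cxcl13 at most 1 and Cxcl17 at most 3, which is at or under the same limit.

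Most receptors of these ligands were scarce, and of the 10 listed 2 could be tested. Ackr3, the scavenging receptor of CXCL12, measured 14.4 ± 4.46 CPM in controls and 16.1 ± 4.35 CPM with DKK1 (SD, n = 3; edgeR adjusted p = 0.896). Cxcr4, its signalling receptor, measured 1.29, 2.12 and 7.77 CPM in controls and 2.06, 1.7 and 5.68 CPM with DKK1 (edgeR adjusted p = 0.946), and was highest in the libraries numbered 3. No receptor was called by edgeR with or without the block or by DESeq2, and 0 of the 2 had an unadjusted p under 0.05. Cxcr2, the main receptor of the ELR ligands, had at most 1 count in any library, and Cxcr3 likewise. Cxcr1, Cxcr5, Cxcr6, Ackr1, Ackr2 and Ackr4 had 0 to 11 counts per library.

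Proteins that process or hold chemokines include proteases and the syndecans that carry heparan sulphate. Of 13 such genes, 10 could be tested, 0 were called by edgeR without the block or by DESeq2, and 2 (20.0%, beside 10.6% of all genes) had an unadjusted p under 0.05. Their median log2 fold change was 0.05, beside -0.0009 over all genes. Mmp8, a collagenase that cleaves CXC ligands, measured 48.9, 37.1 and 32.7 CPM in controls and 92.8, 63.8 and 62.0 CPM with DKK1, with a log2 fold change of 0.88 (SE 0.18). The groups were apart, and edgeR's adjusted p was 0.0869 without the block and 2.62e-08 with it. Sdc4 (syndecan-4) had 152 ± 13 CPM in controls and 179 ± 9.25 with DKK1, at an edgeR adjusted p of 0.238, and of 8.04e-05 in the blocked fit. The blocked fit called 5 of the 10, beside 9.42% of all genes, of which 4 were higher and 1 was lower.

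Genes of the NF-kB and interleukin-17 pathways lay slightly higher with DKK1 as a list, and 2 were called higher, beside 0.697% of all genes. This list, like the processing, interferon and decay lists, was chosen with earlier results of these data known. The shares and calls of these lists are therefore given as a description, and no pathway change is read from them. Of 27 genes, all tested, 24 (88.9%) had a log2 fold change above 0, beside 49.6% of all genes, and the median was 0.13 beside -0.0009. An unadjusted p under 0.05 was found for 12 (44.4%), beside 10.6% of all genes. Bcl3, an IkB-family co-regulator of NF-kB, rose from 12.2 ± 2.04 to 21.4 ± 2.09 CPM (SD, n = 3; log2 fold change 0.80, SE 0.12, edgeR adjusted p = 0.0281). Nfkbiz, which encodes IkB-zeta, a co-activator of interleukin-17 and interleukin-1 target genes, rose from 87.1 ± 4.72 to 117 ± 9.17 CPM (0.43, SE 0.07, edgeR adjusted p = 0.0276). Every DKK1 library was above every control for both genes. With the block, 12 genes were called, beside 9.42% of all genes, and all 12 were higher, among them Nfkb1, Nfkbia, Il1r1, Il17ra, Traf3ip2, Cebpb and Cebpd. In the fit without the block, the count of 2 was 0 without any one of control replicate 1, control replicate 3, DKK1 replicate 1 or DKK1 replicate 2, 1 without control replicate 2 and 3 without DKK1 replicate 3.

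Genes of interferon signalling, which act on Cxcl9 and Cxcl10, gave 0 calls of 16 by edgeR without the block. DESeq2 called 2, beside 288 of the 14635 genes tested. An unadjusted p under 0.05 was found for 4 (25.0%, beside 10.6% of all genes), and the median log2 fold change was 0.05. Of the 16, 13 (81.2%) had a log2 fold change above 0, beside 49.6% of all genes. The 2 with the smallest p were Ifnar2, a subunit of the type I interferon receptor, and Socs3, a feedback inhibitor of cytokine receptors. Ifnar2 measured 51.7 ± 0.985 CPM in controls and 65.5 ± 6.05 with DKK1 (edgeR adjusted p = 0.0685, and 0.000114 with the block). Socs3 measured 43.9 ± 5.0 and 65.9 ± 10.8 CPM (edgeR adjusted p = 0.0918, and 2.73e-05 with the block). With the block 3 of the 16 were called, beside 9.42% of all genes, all higher, the third being Socs1.

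Of 11 genes whose proteins bind AU-rich or stem-loop elements in chemokine messages, 1 rose, beside 0.697% of all genes called higher. Zc3h12a, the endoribonuclease Regnase-1, measured 16.4, 14.1 and 16.3 CPM in controls and 24.2, 21.4 and 21.6 CPM with DKK1 (log2 fold change 0.52, SE 0.08, edgeR adjusted p = 0.0272). The list's median log2 fold change was 0.06, and 3 genes (27.3%, beside 10.6% of all genes) had an unadjusted p under 0.05. With the block, 4 were called, beside 9.42% of all genes: Zc3h12a, Zfp36 and Zfp36l1 higher and Zfp36l2 lower. Zfp36 encodes tristetraprolin, which binds AU-rich elements and speeds decay, and measured 62.4 ± 1.16 CPM in controls and 77.4 ± 5.86 with DKK1 (edgeR adjusted p = 0.0568, and 0.000246 with the block). The Zc3h12a call was lost without any one of control replicate 1, control replicate 2, DKK1 replicate 1 or DKK1 replicate 2.

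Around the members, 88 other protein-coding genes lay within 500 kb, of which 60 could be tested and 2 were called, beside 0.895% of all genes. Ereg, the growth factor epiregulin, lies 168.7 kb from Cxcl2 and rose from 81.3 ± 3.66 to 113 ± 5.83 CPM (SD, n = 3; log2 fold change 0.47, SE 0.05, edgeR adjusted p = 0.00438). Eno3, the muscle enolase, lies 197.2 kb from Cxcl16 and fell from 102 ± 3.28 to 85.5 ± 1.04 CPM (edgeR adjusted p = 0.0181). The median log2 fold change of the 60 was 0.03, and 7 (11.7%) had an unadjusted p under 0.05, a share near the 10.6% of all genes. The Eno3 call was lost without any one of control replicate 1, control replicate 2, DKK1 replicate 1 or DKK1 replicate 2, and the Ereg call was kept in all 6 such fits.

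**Figure D5:**
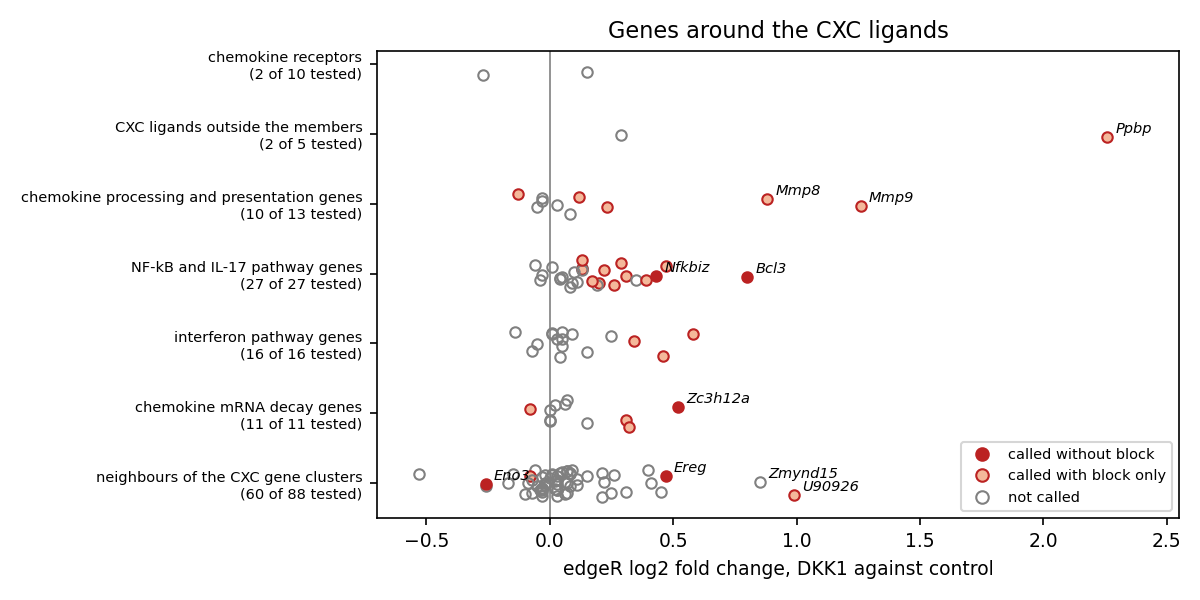
edgeR log2 fold change (DKK1 against control, fit without block) of each tested gene in 7 lists around the ligands; filled red points were called without the block, pale ones only with the block and open ones in neither fit. Bcl3, Nfkbiz, Zc3h12a and Ereg are the genes called higher and Eno3 the one called lower, and Ppbp lies far to the right of the other points.

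The libraries were checked for other cells. The 8 fibroblast markers, which include Col1a1, Col1a2 and Pdgfra, summed to 10600 to 12100 CPM in controls and 9960 to 11500 CPM with DKK1. Most of that sum was Col1a1 and Col1a2, and edgeR called 6 of the 8 with the block, beside 9.42% of all genes, and 0 without it, beside 0.895%: Pdgfra and Dcn higher, and Col1a1, Col1a2, Pdgfrb and Thy1 lower. Dcn, the proteoglycan decorin, measured 40.6 ± 7.92 CPM in controls and 61.8 ± 5.35 CPM with DKK1 (SD, n = 3), and DESeq2 called it without the block. The 8 macrophage markers were all above 0 in every library and summed to 413, 480 and 834 CPM in controls and 464, 506 and 886 CPM with DKK1, so these cultures held macrophage transcripts. Lyz2 alone was most of it, at 340, 402 and 696 CPM in controls and 370, 412 and 722 CPM with DKK1. Of the 8, edgeR called 5 with the block and 0 without it, beside the same shares of all genes: Marco, Itgam and Adgre1 higher, and Mrc1 and Csf1r lower. The 7 neutrophil markers summed to 1.02 to 1.77 CPM in controls and 2.74 to 4.12 CPM with DKK1, nearly all of it S100a8, with Ly6g and Elane at 0 and 5 of the 7 at or under 3 counts everywhere. Endothelial markers summed to 20.8 to 59.2 CPM in controls and 18.9 to 58.2 CPM with DKK1, mesothelial markers to 9.73 to 28.1 and 10.4 to 31.6 CPM, and lymphocyte markers to at most 0.75 CPM in any library, with Cd3e at 0. Macrophages can also express Cxcl1, Cxcl2, Cxcl3 and Cxcl16. The part of macrophages in the members' levels was not tested.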

How the data were processed

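RNA was sequenced from 3 control and 3 DKK1-treated cultures of lung fibroblasts. The deposited table holds the expected counts per gene that the authors made, in a series whose processing notes name RSEM. The submitters' processing notes name STAR, RSEM and edgeR 4.2.1 and the GRCm38 and mm10 builds, with no role or settings. Between 9.62% and 10.56% of the values per library were not whole, and all were rounded. Symbols were found for 45143 of 45706 identifiers, and 98.7% of the listed transcripts occur in GENCODE M21. Genes were filtered with filterByExpr (minimum count 10), scaled by TMM and tested two-sided with edgeR 4.0.16 in R 4.3.3 (glmQLFit, glmQLFTest), with Benjamini-Hochberg adjustment over 14635 genes and calls at 0.05. The common biological coefficient of variation was 6.99%, and 2.3% with the replicate block. Groups share replicate numbers in the labels, and deviations from the group means correlated within numbers (0.349, 0.335 and 0.498) and not across them (-0.332 to 0.067), so the numbers were taken as pairs; the fit without the block stayed the main one. The alternatives were other scalings and filters, DESeq2 1.42.0, limma 3.58.1 (voom), unrounded counts, the block and leaving out libraries; leaving out the libraries numbered 3 in the blocked fit was added after seeing the data. Levels between genes are CPM per kb of merged exons. The fit was also run on simulated counts with known changes, and the outcome is not given here. Those counts had the same dispersion for every gene and no effect of the replicate number. That run therefore says nothing about the fits on paired libraries. The limit of 3 counts covers counting error only. The members and gene lists were chosen with earlier results of these data known. Named genes were all members, the other CXC ligands and receptors, the called genes of each other list (at most 6), or the 2 with the smallest p where none was called, and the 3 nearest profiles of each member of at least 1 CPM; other genes called only with the block, Zmynd15, Art3 and single marker genes were chosen after their values were seen.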

Additional observations from a re-analysis of the deposited data

How the results depend on the processing

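Without the block, 131 genes were called in all; leaving out 1 library gave 36 to 139, no filter on low counts 329, DESeq2 289, DESeq2 with the replicate block 551, the replicate block 1379 and the block without the libraries numbered 3 1059. Against 4 members called, leaving out 1 library gave 1 to 5, the block 7, no filter 6, DESeq2 with the block 6 and the block without the libraries numbered 3 6. A minimum of 10 counts in every library gave 2, since Cxcl2 and Cxcl3 were then not tested. Cxcl10 turned to a log2 fold change of 0.326 without control replicate 3, 0.515 without the libraries numbered 3 and 0.452 with the block and without them, and Cxcl12 to 0.009 without control replicate 2. Leaving out 1 library moved Cxcl10 between -0.817 and 0.326 and Cxcl12 between -0.159 and 0.009. No other member changed sign under any alternative run. The Cxcl12 level in controls was 120 CPM per kb over its longest transcript, with the order of members kept. For the CXC ligands outside the members, no filter, DESeq2, the replicate block, both together and the block without the libraries numbered 3 each called 1. Processing genes gave 1 call without a filter, 5 with the replicate block, 3 with DESeq2 and the block, 1 without the libraries numbered 3 and 4 with the block and without them. NF-kB and interleukin-17 genes gave 7 without a filter, 12 with the block, 6 with DESeq2, 8 with DESeq2 and the block, 1 without the libraries numbered 3, 12 with the block and without them, and 0 to 3 without 1 library. Interferon genes gave 2 without a filter, 3 with the block, 2 with DESeq2 with or without the block, 2 without the libraries numbered 3, 3 with the block and without them, and 0 to 2 without 1 library. Decay genes gave 2 with library totals, 3 without a filter, 4 with the block, 2 with DESeq2, 3 with DESeq2 and the block, 0 without the libraries numbered 3, 3 with the block and without them, and 0 to 1 without 1 library. Neighbours gave 4 with the block, with or without the libraries numbered 3, 1 without those libraries in the unblocked fit and 1 to 2 without 1 library. The cause of these shifts was not tested. With 3 libraries a group and control levels of a few counts, Cxcl2 and Cxcl9 are limited by depth.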

Other observations

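Some transcripts of myeloid cells had higher or lower means with DKK1, and none of those named here was called by edgeR without the block. Marco, a scavenger receptor of macrophages, measured 3.86, 4.74 and 10.6 CPM in controls and 16.5, 14.5 and 29.3 CPM with DKK1 (edgeR adjusted p = 0.116, and 2.51e-07 with the block). Itgam, the integrin subunit CD11b of myeloid cells, measured 11.5, 12.6 and 20.6 CPM in controls and 26.3, 25 and 43.2 CPM with DKK1 (edgeR adjusted p = 0.136, and 7.23e-08 with the block). Other macrophage markers had lower means with DKK1: Mrc1 went from 20.2 ± 7.56 to 14.9 ± 5.52 CPM, Csf1r from 24.4 ± 8.94 to 20.2 ± 4.36, Cd68 from 14.0 ± 5.67 to 12.3 ± 4.28 and Ptprc from 10.1 ± 2.76 to 9.29 ± 3.64 (SD, n = 3), with groups that overlapped. Mrc1 and Csf1r were called lower with the block (edgeR adjusted p = 0.000384 and 0.0364), and Cd68 and Ptprc were not called in either fit. The remaining macrophage markers, Adgre1 and Lyz2, had higher means with DKK1, with groups that overlapped. Adgre1 went from 6.38 ± 2.67 to 9.35 ± 4.11 CPM and was called higher with the block (edgeR adjusted p = 0.00179). Lyz2 went from 479 ± 190 to 501 ± 193 CPM and was not called in either fit. S100a8, a calcium-binding protein of neutrophils and monocytes, measured 0.798, 0.991 and 1.68 CPM in controls and 3.21, 2.56 and 4.03 CPM with DKK1 (edgeR adjusted p = 0.0705, and 0.000308 with the block; DESeq2 adjusted p = 0.00127 without it), while its usual partner S100a9 had 0 counts in every control and 1, 2 and 0 with DKK1. These genes were chosen after their values were seen. Mmp9, the gelatinase B gene, measured 4.03, 3.75 and 14.9 CPM in controls and 13.5, 10.7 and 30.5 CPM with DKK1 (edgeR adjusted p = 0.481, and 4.93e-06 with the block), and its groups overlapped. For Marco, Itgam, S100a8 and Mmp9 the library numbered 3 was the highest of its group, as it was for the summed macrophage markers.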
